A study of Homo sapiens with 2 samples.

Results

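Interleukin-8 (IL-8), GRO, GRO-a and MIP 2 are chemokines that attract neutrophils, and conditioned medium of pancreatic cancer cells was read with 4 antibodies that carry these names, out of 507 antibodies on the array. The antibodies were picked by their names, though with earlier results of these data known. Of the 4 antibodies, 2 read lower by at least 1.5-fold on the array labelled siJAG1 than on the array labelled siNC. By the same limit 38.5% of the 39 bright antibodies were lower (median log2 ratio -0.80, with dim values left as read). The 2 members were IL-8, which was 2.39-fold lower, and MIP 2, which was 3.75-fold lower, in the authors' background-subtracted readings. GRO was 1.49-fold lower, just short of that limit. GRO-a stayed dim, within the blank spots on the siJAG1-labelled array and somewhat above them on the siNC-labelled array, where the median antibody was above them too. Positive controls read only 1.72 (siJAG1-labelled) and 1.68 (siNC-labelled) times the blanks, which leaves little room for 1.5-fold without background subtraction. With no background subtracted, 0 of the 4 passed the limit. There was 1 array per label, so these are differences between 2 arrays with no replicate check and no test.

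By the labels, one array held medium of cells transfected with siJAG1, an siRNA against JAG1, and the other held medium of cells transfected with siNC, a control siRNA. JAG1 encodes Jagged 1, a ligand of the Notch receptors, and by its title the study asked which cytokines differ after its RNA interference. The sample titles name Su.86.86, a human pancreatic cancer cell line, and both cultures were kept in medium with 10% fetal bovine serum and sampled 48 h after transfection. The array carries no antibody named for Jagged 1, so the effect of the siRNA on its target cannot be read from these data, and no label says how many cultures were pooled.

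The labels are open to doubt, which bears on every direction given here. A sheet of single spots holds 4 columns. They are headed BX3_NC, Panc1_NC, BX3mir-124 and Panc1_mir-124, and none of these headings is a label of the study. The signal labelled siJAG1 equalled the mean of the spot pair under BX3_NC for 507 of 507 antibodies, and the signal labelled siNC equalled that under Panc1_NC for 507 of 507 (tolerance 1e-06). Panc1 is the name of another pancreatic cancer cell line than the one in the titles, and both matching headings end in NC. If the headings are right, the ratios below compare media from differently named cells. The arrays are therefore called siJAG1-labelled and siNC-labelled. The match also means that both spots behind each labelled value are known, so the spread of the spot pairs is given with each value. That spread is technical, within 1 array, and says nothing of how cultures vary.

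ELR CXC chemokines are small secreted proteins named for a glutamate-leucine-arginine motif ahead of their first cysteines. They bind the receptors CXCR1 and CXCR2, draw neutrophils out of the blood into tissue, and also act on blood vessel cells. IL-8 is the product of CXCL8 and binds both receptors. GRO is the name of a family of closely related proteins encoded by CXCL1, CXCL2 and CXCL3, GRO-a is the product of CXCL1, and MIP 2 is an older name of the CXCL2 product; all of these act mainly through CXCR2. Carcinoma cells, among them pancreatic ones, can secrete these proteins, and inflammatory signals such as interleukin-1 and TNF raise their transcription through NF-kB in many cell types.

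The array sheets give antibody names and no gene. In the RefSeq gene table, IL-8 matched 1 symbol, CXCL8, and GRO-a matched 1 symbol, CXCL1. MIP 2 matched 2 symbols, CXCL2 and the unrelated WDR26, and GRO matched 0 symbols. The labels and files used here do not say which of the 3 GRO proteins the GRO antibody binds. The genes lie in one cluster on chromosome 4. Its 9 protein-coding genes stand in the order CXCL8, CXCL6, PF4V1, CXCL1, PF4, PPBP, CXCL5, CXCL3 and CXCL2.

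The promoters of CXCL8 and of the 3 GRO genes are shown because the antibodies to their products are the ones compared here. Each window runs 5′ to 3′ from 250 bases before to 50 bases after the transcription start, from RefSeq on build GRCh38.p14. It lies at chr4:73740319-73740618 on the plus strand for CXCL8, chr4:73869143-73869442 on the plus strand for CXCL1, chr4:74099146-74099445 on the minus strand for CXCL2 and chr4:74038640-74038939 on the minus strand for CXCL3. Capitals mark the letters GGAATTTCC, a form of the NF-kB binding motif.
CXCL8: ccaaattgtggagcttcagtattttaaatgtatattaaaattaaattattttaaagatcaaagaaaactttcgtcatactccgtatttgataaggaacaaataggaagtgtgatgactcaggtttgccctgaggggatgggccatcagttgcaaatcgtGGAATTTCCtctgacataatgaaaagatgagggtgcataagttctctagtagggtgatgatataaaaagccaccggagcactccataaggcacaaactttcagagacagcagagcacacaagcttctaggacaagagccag
CXCL1: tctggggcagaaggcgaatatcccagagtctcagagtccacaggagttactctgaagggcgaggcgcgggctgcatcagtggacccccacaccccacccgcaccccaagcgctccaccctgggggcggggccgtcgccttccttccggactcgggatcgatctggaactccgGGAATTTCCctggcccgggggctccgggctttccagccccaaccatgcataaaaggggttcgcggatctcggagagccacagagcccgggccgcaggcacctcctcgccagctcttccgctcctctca
CXCL2: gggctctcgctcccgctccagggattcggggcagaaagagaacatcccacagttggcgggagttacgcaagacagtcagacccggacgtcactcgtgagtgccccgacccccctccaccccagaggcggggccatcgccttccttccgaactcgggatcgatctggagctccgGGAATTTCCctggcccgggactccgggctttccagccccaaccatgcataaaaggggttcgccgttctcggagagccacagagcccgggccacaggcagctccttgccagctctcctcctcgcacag
CXCL3: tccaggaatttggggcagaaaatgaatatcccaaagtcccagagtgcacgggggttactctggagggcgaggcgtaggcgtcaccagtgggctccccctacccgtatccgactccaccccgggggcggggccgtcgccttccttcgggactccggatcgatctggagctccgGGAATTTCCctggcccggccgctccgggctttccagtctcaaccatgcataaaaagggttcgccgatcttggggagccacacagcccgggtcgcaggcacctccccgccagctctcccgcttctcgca

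The marked letters began 91 bases before the start in CXCL8, 78 in CXCL1, 77 in CXCL2 and 78 in CXCL3. They also stood 90 bases before the start of CXCL5 and 89 before that of CXCL6, which makes 6 of the 7 ELR chemokine genes of the cluster, and they were not in the window of PPBP. Searched on both strands, they stood in 162 of 35116 promoter windows of the same length (0.461%). A match describes the letters only and says nothing of binding in these cells. In pairwise alignments the window of CXCL1 was 82.5% identical to that of CXCL3 and 72.9% to that of CXCL2, and CXCL2 and CXCL3 were 73.8% identical. The window of CXCL8 was 46.0% to 47.5% identical to those of the GRO genes.

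Each antibody was printed as 2 spots, and a value is given below as scanner signal and as the authors' relative expression. Relative expression is the signal minus a baseline, divided by the mean of the positive controls minus that baseline, which puts the positive controls at 1. The baseline equals the lowest single spot of the whole column, which was 33644 on the siJAG1-labelled and 33619 on the siNC-labelled array. The positive controls averaged 58664 and 57374 over 12 spots each, and the 32 blank spots averaged 34178 ± 126 on the siJAG1-labelled and 34188 ± 146 on the siNC-labelled array (SD over spots). The whole range of signal was therefore short: the positive controls stood at only 1.72 and 1.68 times the blanks. Whether signal is proportional to protein is not known, so folds compare readings, and readings of different antibodies are not set against each other.

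IL-8 gave spots of 44233 and 42860 on the siJAG1-labelled array, against 56693 and 55579 on the siNC-labelled array. Both spots of the siJAG1-labelled array lay below both spots of the siNC-labelled one, and the difference of the means was many times the gap within either pair, which was 1373 and 1114. In relative expression IL-8 stood at 0.396 (spots 0.423 and 0.368), against 0.948 (spots 0.971 and 0.924). The log2 ratio was -1.26, and it lay between -1.40 and -1.13 when single spots were set against each other. The signal of IL-8 was 74.2% of the positive control signal on the siJAG1-labelled array, against 97.8% on the siNC-labelled array, where little range was left above it.

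MIP 2 gave spots of 38739 and 38787 on the siJAG1-labelled array, against 51134 and 52550 on the siNC-labelled array. The groups of spots did not overlap, and of the 3 readable members this one had the widest ratio. Relative expression was 0.205 (spots 0.204 and 0.206), against 0.767 (spots 0.737 and 0.797), a log2 ratio of -1.91 with a range of -1.97 to -1.84 over single spots. The lower reading lay just above 0.2, the floor under which values were not used for folds, but it stood 36.4 SDs of the blank spots above their mean, and both spots exceeded every blank.

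GRO gave spots of 49487 and 49577 on the siJAG1-labelled array, against 56037 and 56186 on the siNC-labelled array. The pairs were tight, with gaps of 90 and 149, and did not overlap. The signal was 84.4% of the positive control signal on the siJAG1-labelled array, against 97.8% on the siNC-labelled array, where little range was left above GRO as well. Relative expression was 0.635 (spots 0.633 and 0.637), against 0.947 (spots 0.944 and 0.950). The log2 ratio of -0.58 (single spots -0.59 to -0.57) lay at the limit of 1.5-fold, and folds of single spots ran up to that limit, with 1.48 as the smallest. The authors' scaling put GRO lower on the siJAG1-labelled array, but the log2 ratio was 0.00 after division by the array total and 0.19 after division by the array median, so its direction did not hold under those scalings. The array median of relative expression was 0.0299 on the siJAG1-labelled and 0.0509 on the siNC-labelled array. Both lie under the floor of 0.2, so division by the median scales by dim antibodies.

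GRO-a, by its name an antibody to the CXCL1 product alone, gave spots of 34124 and 34131 on the siJAG1-labelled array, against 35161 and 35360 on the siNC-labelled one. Both siJAG1-labelled spots lay within the range of the blanks, and their mean was 0.40 SDs below the blank mean. On the siNC-labelled array both exceeded the highest blank of 34396, and the mean stood 7.34 SDs above the blank mean and 322 units above the median of the dim spots around it. The median antibody of that array, at 34827, also exceeded the highest blank, so passing the blanks does not set GRO-a apart there. Relative expression was 0.0193 against 0.0691, under the floor of 0.2 on both arrays, so no fold is given. What the antibodies named GRO and GRO-a each bind, and how well, was not tested.

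**Figure D1:**
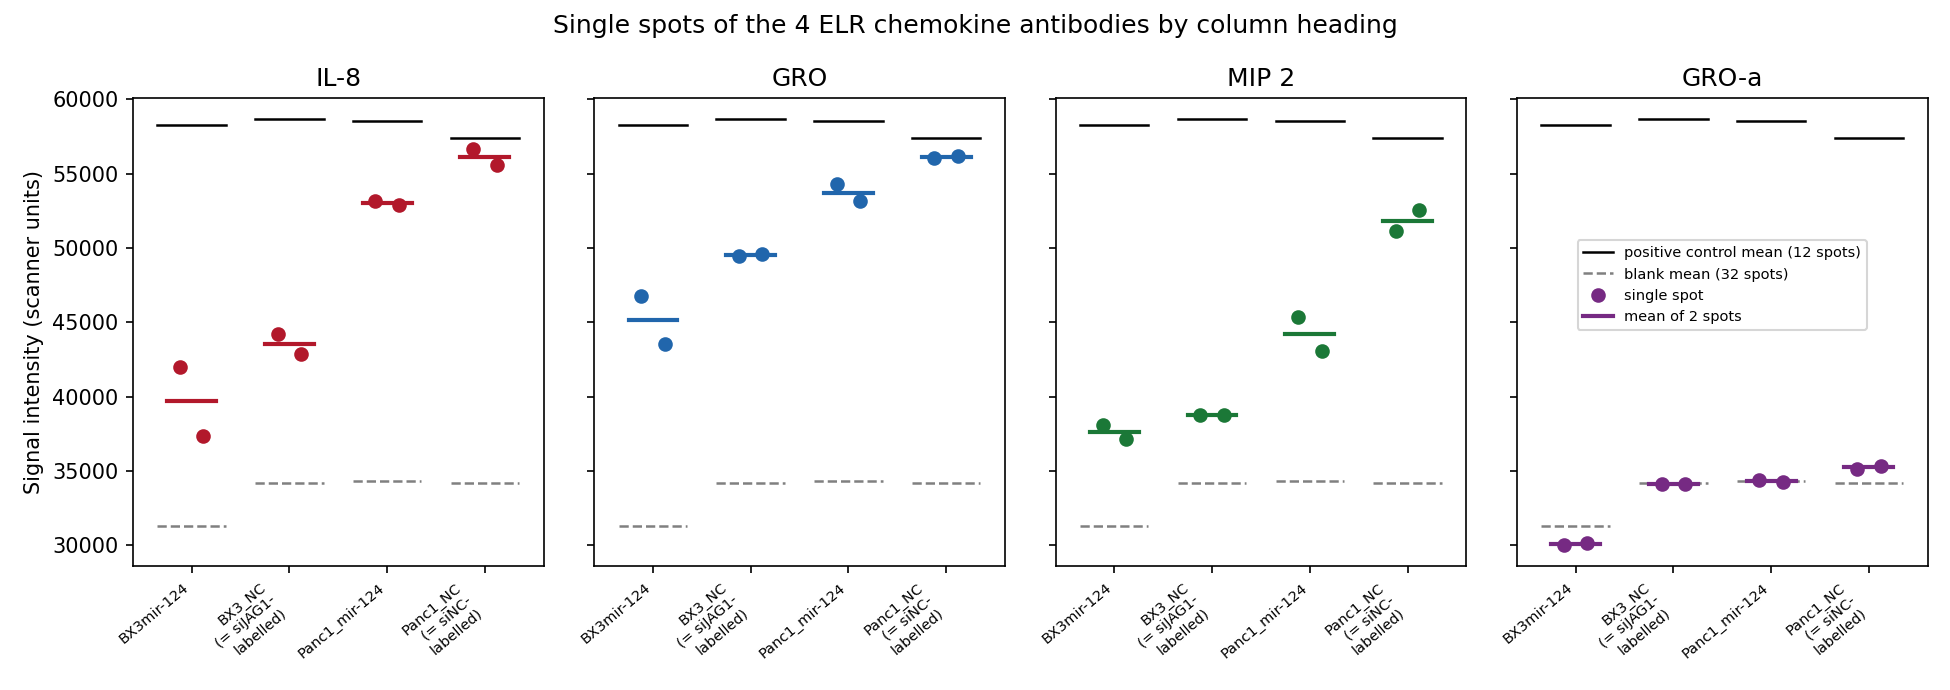
Signal intensity in scanner units (vertical axis) of both spots of IL-8, GRO, MIP 2 and GRO-a, 1 panel each, under the 4 column headings (horizontal axis). Points are single spots, short coloured lines their means, black lines the mean of 12 positive controls and dashed lines the mean of 32 blanks. IL-8, GRO and MIP 2 are lower under both BX3 headings than under both Panc1 headings, and GRO-a stays dim, with its highest spots under Panc1_NC.

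These ratios have to be read against the rest of the array. Of the 39 antibodies that reached 0.2 on at least 1 of the 2 labelled arrays, 15 were lower by at least 1.5-fold on the siJAG1-labelled array (38.5%) and 7 were higher. Of the members, 3 of 4 were among these 39, with 2 lower and 0 higher. Lower readings were thus common among bright antibodies, and nothing particular to the 3 members is read from their count. The median log2 ratio of the 39 was -0.80 with values under 0.2 left as read, unlike in the calls. Readings far under the floor enter that median, so the ratios of the members are not ranked against it.

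**Figure D2:**
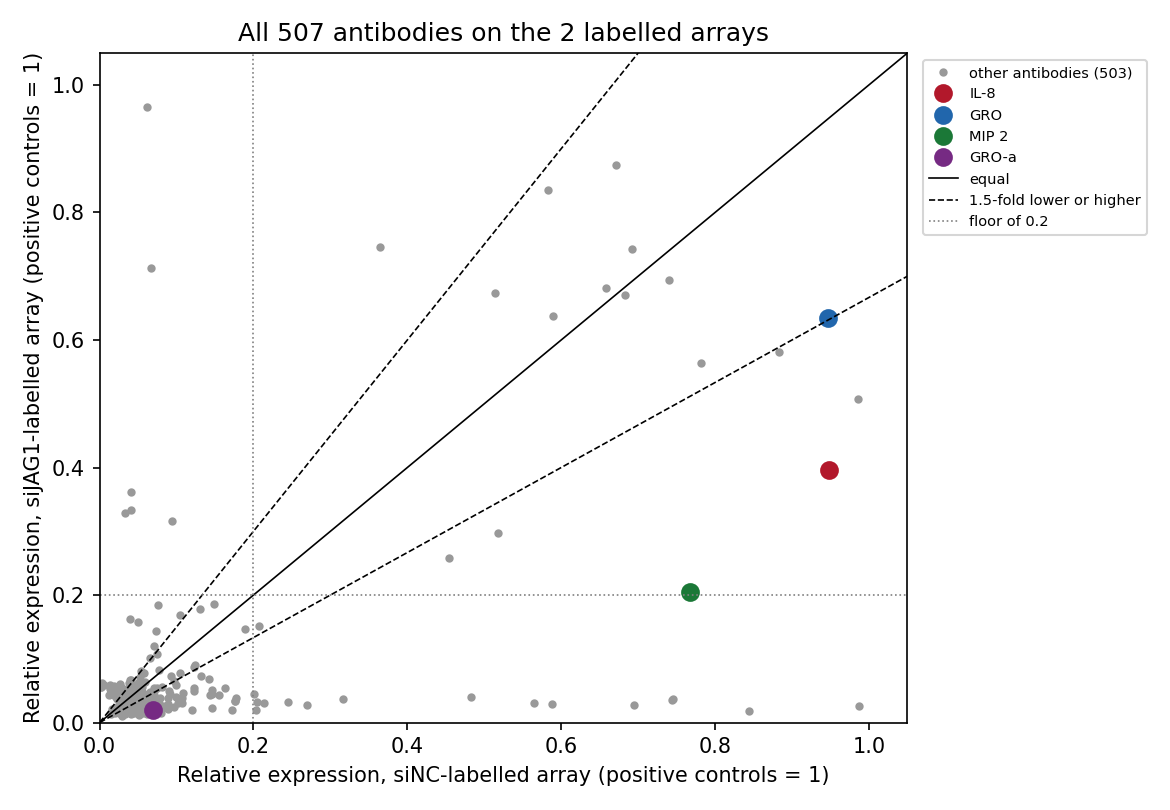
Relative expression (positive controls = 1) of all 507 antibodies, with the siJAG1-labelled array on the vertical axis and the siNC-labelled array on the horizontal axis. Coloured points are the 4 chemokine antibodies, grey points the other 503, dashed lines 1.5-fold and dotted lines the floor of 0.2. MIP 2 and IL-8 lie beyond the lower 1.5-fold line, GRO lies on it and GRO-a lies near the origin.

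The 2 columns that match no labelled array add readings of the same antibodies. No label explains the headings, and mir-124 is read only as a heading. IL-8 gave 42032 and 37331 under BX3mir-124, a gap of 4701 that was the largest of any antibody in that column, and 53184 and 52886 under Panc1_mir-124. In relative expression computed by the authors' formula these were 0.352 and 0.779. From low to high, IL-8 read 0.352 under BX3mir-124, 0.396 under BX3_NC, 0.779 under Panc1_mir-124 and 0.948 under Panc1_NC. The first 2 of these overlapped in their spots, and the others were separate.

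GRO gave 46780 and 43568 under BX3mir-124 and 54281 and 53184 under Panc1_mir-124. Its relative expression ran 0.543 under BX3mir-124, 0.635 under BX3_NC, 0.807 under Panc1_mir-124 and 0.947 under Panc1_NC, the same order as IL-8, with no overlap of spots between neighbours. MIP 2 gave 38092 and 37174 under BX3mir-124 and 45382 and 43094 under Panc1_mir-124. Its relative expression ran 0.205 under BX3_NC, 0.281 under BX3mir-124, 0.428 under Panc1_mir-124 and 0.767 under Panc1_NC. MIP 2 thus had its BX3 columns in the opposite order, which held for relative expression only: in plain signal both spots under BX3mir-124 were below those under BX3_NC. The blanks differed in the same sense, at 31271 under BX3mir-124 and 34178 under BX3_NC. So did the baselines, at 29552 and 33644, and the baseline lay further below the blanks under BX3mir-124. GRO-a stayed under 0.2 in all 4 columns, and Panc1_NC was the only one in which its spots exceeded the highest blank. The median antibody also exceeded the highest blank in that column.

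Comparing BX3mir-124 with Panc1_mir-124 uses no column of the labelled arrays, and it was chosen after the values were seen. IL-8 was 2.21-fold lower under BX3mir-124 there, with a log2 ratio of -1.14 (single spots -1.54 to -0.83). MIP 2 was 1.52-fold lower, at -0.61 (-0.84 to -0.36), and GRO was 1.48-fold lower, at -0.57 (-0.77 to -0.39). The spots did not overlap for any of the 3. Of 30 antibodies at or above 0.2 in at least 1 of these columns, 56.7% were lower by that limit, so 2 of 3 members is close to that share. The median log2 ratio of the 30 was -1.27, with values under 0.2 left as read. The single-spot ranges of GRO and MIP 2 both spanned the 1.5-fold limit.

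Within the Panc1 headings, mir-124 over NC shares its Panc1_NC column with the main comparison. MIP 2 stood at 0.428 under Panc1_mir-124, against 0.767 under Panc1_NC, 1.79-fold lower, with a log2 ratio of -0.84 (single spots -1.06 to -0.64). That call was lost after division by the column median, at -0.39, and with no background subtracted, at -0.26. IL-8 had a log2 ratio of -0.28 (-0.33 to -0.24) and GRO one of -0.23 (-0.28 to -0.19), and both turned positive, to 0.17 and 0.22, after that division. Of 37 antibodies, 13.5% were lower by 1.5-fold, and 1 of 3 members was. The median log2 ratio of the 37 was -0.07, with values under 0.2 left as read.

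Within the BX3 headings, mir-124 over NC shares its BX3_NC column with the main comparison. Of 27 antibodies, 37.0% were lower by 1.5-fold, and 0 of 3 members were. The median log2 ratio of the 27 was -0.31, with values under 0.2 left as read. IL-8 had a log2 ratio of -0.17, and its single spots ran from -0.65 to 0.24, so no direction can be read. GRO had -0.22 (-0.39 to -0.08). MIP 2 had 0.46 (0.37 to 0.54), which is 1.37-fold higher, but it was -0.03 without background subtraction. After division by the column median IL-8 was at -0.62 and GRO at -0.67, both lower by more than 1.5-fold, and MIP 2 was at 0.01.

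**Figure D3:**
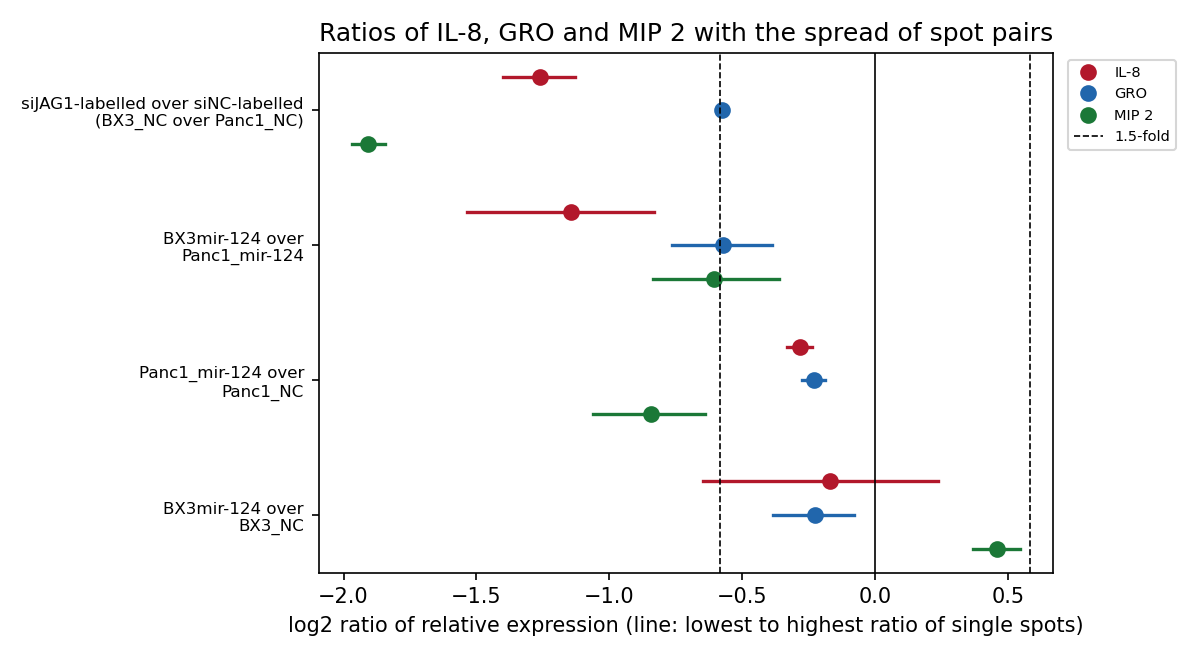
The log2 ratio of relative expression (horizontal axis) of IL-8, GRO and MIP 2 in 4 comparisons of columns (vertical axis). Points are ratios of spot means, lines run from the lowest to the highest ratio of single spots, and dashed lines mark 1.5-fold. BX3 over Panc1 lies left of 0 for all 3 antibodies in both of its comparisons, while the line of IL-8 for mir-124 over NC under the BX3 headings crosses 0.

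The size of the main ratios moved with the background that was subtracted. Scaled to the positive controls but with no background subtracted, IL-8, GRO and MIP 2 had log2 ratios of -0.40, -0.21 and -0.45, none of them past 1.5-fold. That setting leaves little room for 1.5-fold, as positive controls stood at only 1.72 (siJAG1-labelled) and 1.68 (siNC-labelled) times the blanks. With the median of the surrounding dim spots subtracted instead of the authors' baseline, the ratios were -1.34, -0.59 and -2.01, and all 3 passed. Division by the array median also took IL-8 inside the limit, at -0.49, and left MIP 2 past it, at -1.14. Over all antibodies that division shifted the median log2 ratio by 0.77.

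**Figure D4:**
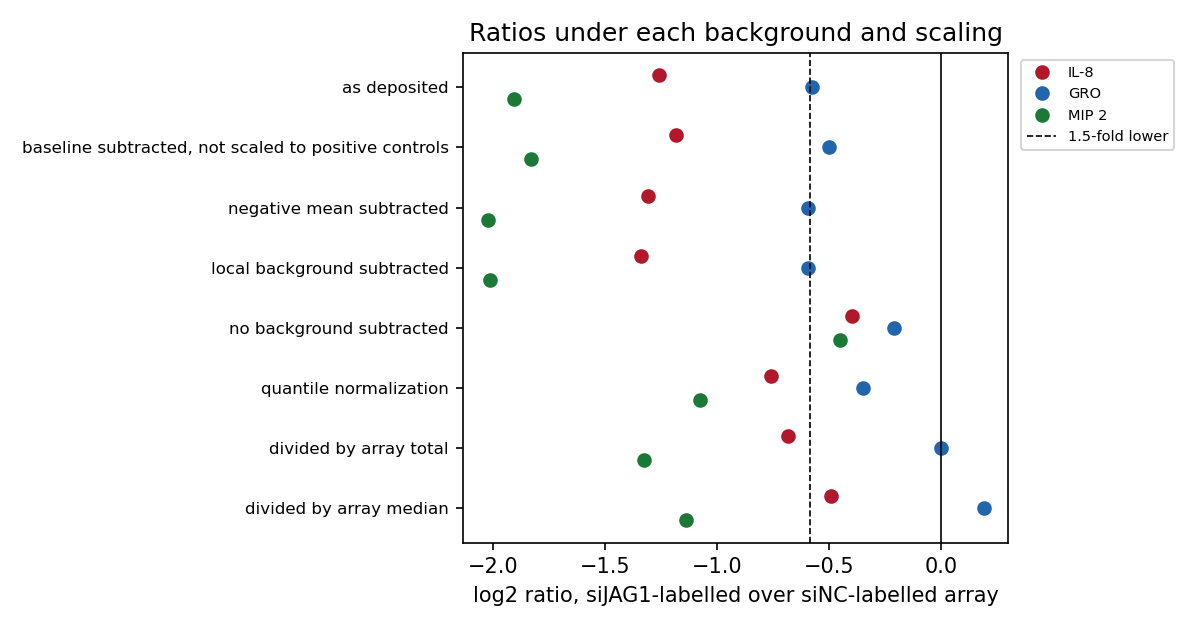
The log2 ratio of the siJAG1-labelled over the siNC-labelled array (horizontal axis) for IL-8, GRO and MIP 2 under 8 choices of background and scaling (vertical axis). Points are single values, the solid line marks equality and the dashed line 1.5-fold lower. IL-8 and MIP 2 are left of 0 in all 8, and GRO reaches 0.00 and 0.19 when the arrays are divided by their total or median.

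The sheets also print a quantity named as a negative mean, which is the mean of the 32 blank spots and not of the 16 spots named neg. The spots named neg lie in the corners of the slide beside the positive controls and averaged 46542 on the siJAG1-labelled and 43044 on the siNC-labelled array. The siJAG1-labelled signals of IL-8 (43546.5) and MIP 2 (38763) were below that mean of 46542, although they stood 74.3 and 36.4 blank SDs above the blanks. No label says what the neg spots carry.

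Place on the slide was looked at for each member. The 8 antibodies printed around IL-8 read up to 34640 on the siJAG1-labelled array, against up to 51315 on the siNC-labelled array, where the brightest neighbour was IL-1 alpha. Around GRO the brightest neighbours were Galectin-3, at 37302, on the siJAG1-labelled array and IGFBP-7, at 57073, on the siNC-labelled one. Around MIP 2 all 8 neighbours were dim, up to 34234 on the siJAG1-labelled and 35290 on the siNC-labelled array, so the ratio of MIP 2 was read on a dark part of both slides. GRO-a was printed next to GRO, which was its brightest neighbour on both arrays. The part of bright neighbours in the readings of IL-8, GRO and GRO-a was not tested.

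The other ELR chemokines measured were ENA-78 (CXCL5), GCP-2 (CXCL6) and NAP-2, the platelet chemokine made from the PPBP product. None of these 3 reached 0.2 in any of the 4 columns, where their highest relative expression was 0.0581. ENA-78 stood at 0.0491 on the siJAG1-labelled array, against 0.0434 on the siNC-labelled array. GCP-2 stood at 0.0287 against 0.0491 and NAP-2 at 0.0407 against 0.0522. The products of CXCL5 and CXCL6 thus read dim. The spots of ENA-78 exceeded every blank on both labelled arrays, and those of GCP-2 did on the siNC-labelled array. The promoter windows of CXCL5 and CXCL6 hold the same marked letters as those of CXCL8 and the GRO genes. Whether these letters bear on any reading was not tested. How sensitive each antibody is was not tested.

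CXCR1 and CXCR2, the receptors of these chemokines, are proteins of the cell membrane, and their antibodies read low in the medium. CXCR1 stood at 0.0303 on the siJAG1-labelled array, against 0.0682 on the siNC-labelled array, and CXCR2 at 0.0224 against 0.0685. The 8 CXC chemokines without the ELR motif, which act on other receptors and mostly draw lymphocytes, stayed below 0.2 as well, with highest values of 0.0395 and 0.0815.

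Of 14 cytokines listed as possible inducers of ELR chemokines, 1 reached 0.2. This was IL-1 alpha, an interleukin-1 that cells release on injury, at 0.0374 on the siJAG1-labelled array, against 0.745 on the siNC-labelled array, at least 3.72-fold lower. It stood at 0.0350 under BX3mir-124 and at 0.158 under Panc1_mir-124. Whether IL-1 alpha bears on the readings of IL-8, GRO and MIP 2 was not tested.

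Of 7 other proteins with genes known to respond to NF-kB, 3 reached 0.2 and 2 were lower by 1.5-fold, against 38.5% of all bright antibodies. MCP-1, the CCL2 product and an attractant of monocytes, stood at 0.0353 on the siJAG1-labelled array, against 0.744 on the siNC-labelled array, at least 3.72-fold lower. The urokinase-type plasminogen activator uPA, a secreted protease, stood at 0.508 against 0.985, 1.94-fold lower. RANTES, an attractant of T cells and monocytes, stood at 0.0194 against 0.204, right at the floor.

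Of 10 other proteins tied to neutrophils, 1 reached 0.2, and it went the other way. Lipocalin-2, a protein of neutrophil granules and of epithelium that binds iron carriers of bacteria, stood at 0.965 on the siJAG1-labelled array, against 0.0620 on the siNC-labelled array, at least 4.82-fold higher. It was 0.897 under BX3mir-124, against 0.0403 under Panc1_mir-124. Lipocalin-2 thus read higher under both BX3 headings than under both Panc1 headings, while IL-8, GRO and MIP 2 each read lower.

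Markers of blood cells were also read, although by the titles the media came from a cell line. Whether blood cells brought any of the chemokines was not tested. None of 16 white blood cell markers reached 0.2 on a labelled array. Their highest values were 0.101 on the siJAG1-labelled and 0.155 on the siNC-labelled array, their summed relative expression was 0.715 and 1.16, and CD14 stood at 0.0309 and 0.0729. One of them, Siglec-5, reached 0.292 under Panc1_mir-124. Of 4 platelet markers, PF4 stood at 0.0175 on the siJAG1-labelled and 0.0285 on the siNC-labelled array, and P-selectin at 0.158 and 0.0497. Thrombospondin-1, which serum and many cells also supply, stood at 0.694 and 0.740. Fetal bovine serum was in both media, and whether any of the antibodies bound bovine protein was not tested.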

How the data were processed

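Values are those the authors deposited from Raybiotech L-507 antibody arrays read with Cy3-streptavidin, with 1 array per label. Signal intensity is, per the file headers, the reading of each antibody, and the values show it to be the mean of 2 spots. The deposited relative expression is a ratio, (signal - baseline) / (positive control mean - baseline), as solved from the authors' values, and the values of the series table equal it. No label or header names the scanner, the software or a background step. The 4 single-spot columns, deposited in 2 identical copies, were assigned to no sample and were read by heading. The series design text spells the cell line Su.86.68.

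Ratios are on the log2 scale with no pseudocount. An antibody was called at 1.5-fold among those at or above 0.2 in at least 1 of both columns, with lower values set to 0.2 and the fold then given as a bound. Medians of log2 ratios over antibodies left such values as read. Counts of members under alternative backgrounds and scalings kept the members bright as deposited and set no value to the floor. The 3 rows named Positive were left out. Single-spot ratios cover all spot pairings. Local background is the median of spots within 6 rows and 3 columns, taken only from other antibodies under 0.2 in all 4 columns. Promoters were aligned globally with Biopython 1.88 (match 1, mismatch -1, gap open -2, extend -1), and tables were made with pandas 2.3.3 and numpy 2.4.6. The calculation was tested on simulated data. No test between labels was possible with 1 array each, and the number of arrays limits the precision. The members, lists and named antibodies (the 4 members, other ELR chemokines, receptors, list members at 0.2 and print neighbours) were chosen with earlier results of these data known. Alternatives covered background, scaling, floor, fold limit and single spots.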

Additional observations from a re-analysis of the deposited data

Results flagged for a closer look

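MIP 2 differed in the direction of mir-124 over NC between the headings: the log2 ratio was -0.84 under the Panc1 headings and 0.46 under the BX3 headings, and both single spots under each mir-124 heading lay on that side of both spots of their NC column in relative expression. Without background subtraction the ratios were -0.26 and -0.03. Under the BX3 headings the ratio was 1.37-fold, short of the 1.5-fold limit. The subtracted baseline there was 29552 under BX3mir-124 (blank mean 31271) and 33644 under BX3_NC (blank mean 34178). The part of these baselines in that ratio was not tested, and neither was the difference between the headings. Spots named neg gave signal in data that no comparison used: their mean was 46542 in the column equal to the siJAG1-labelled array (range 36710 to 57830) and 43044 in the column equal to the siNC-labelled array (range 35068 to 56592), against blank means of 34178 and 34188.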

How the results depend on the processing

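No paired analysis was possible because each label has 1 array. IL-8 and MIP 2 stayed lower on the siJAG1-labelled array under every alternative run, and no call turned round. The log2 ratios of IL-8, GRO and MIP 2 were -0.49, 0.19 and -1.14 divided by array median, -0.68, 0.0015 and -1.33 divided by array total, -0.76, -0.35 and -1.08 after quantile normalization, and -0.40, -0.21 and -0.45 with no background subtracted. GRO was -0.50 without scaling to the positive controls. With the blank mean, listed as the negative mean, subtracted, GRO was -0.59 and MIP 2 -2.02, and with local background, chosen after seeing the data, GRO was -0.59 and MIP 2 -2.01. The number of members lower by 1.5-fold was 2 as deposited, 1 divided by array median (MIP 2), 0 with no background subtracted, and 3 with the negative mean or local background, where GRO joined. It stayed 2 at a limit of 2-fold and at a floor of 0.1. The share of all bright antibodies past the limit is given for the deposited values only. Nothing particular to the members is therefore read from these counts. GRO-a has no ratio, as both arrays were under the floor. The median log2 ratio of all antibodies moved by 0.77 (median), 0.58 (total), 0.75 (quantile), 0.73 (no background) and -0.72 (negative mean). Readings near the blanks, and the small range from blanks to positive controls, limit what GRO-a can show.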
